A study of Mus musculus with 2 samples.

Results

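Adipokines are proteins that fat secretes into the circulation or its surroundings, and through them adipocytes report energy stores, act on insulin sensitivity and address vessels and immune cells. In visceral fat such as the epididymal depot some are made by adipocytes themselves, as adiponectin and leptin are, and others also by macrophages, stromal cells or endothelium. The genes described here are 10 adipokine genes: Adipoq (adiponectin), Lep (leptin), Retn (resistin), Cfd (adipsin), Rarres2 (chemerin), Nampt (visfatin), Metrnl (meteorin-like protein), its paralog Metrn (meteorin), Nrg4 (neuregulin 4) and Apln (apelin). They were found by the gene symbol that the platform annotation gives a probe set. Of the 10 genes 9 had 1 probe set each, out of 22206 probe sets kept on the array. No probe set carried the symbol Cfd, which was not analysed here.

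The epididymal fat of KO_A12 mice was compared with that of WT_A12 mice on Clariom S Mouse Arrays, with RNA of 3 males pooled for each of the 2 arrays. KO_A12 mice were homozygous, in all tissues, for a frameshift deletion in exon 1 of Iah1 made by CRISPR/Cas9, and came from a line bred from homozygotes. WT_A12 mice were A/J-12SM mice, the A/J strain with chromosome 12 of SM/J, which is also the background of KO_A12. Both ate chow to 6 weeks of age and then a high-fat diet with lard for 12 weeks, and were killed at 18 weeks after 4 h without food. Values are log2 signals, and differences were taken as KO_A12 minus WT_A12. With 1 array per genotype the spread between mice is unknown and no test was possible. In place of it each difference is set beside the robust SD of the differences of the 500 probe sets nearest in mean signal (their scaled median absolute deviation), which describes these 2 arrays and not the variation between mice.

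On the whole arrays, Iah1 had a log2 signal of 8.35 in KO_A12 and 9.52 in WT_A12 and was called lower. The KO_A12 signal lay 1.13 log2 units above the highest background control of that array. By real-time qPCR and Western blot, the paper found no detectable Iah1 mRNA or IAH1 protein in KO_A12. Where the array probes of Iah1 lie relative to the deletion is not stated in what was used here, so the array difference is a weak check of the labels. The background control probe sets had median log2 signals of 5.61 in KO_A12 and 5.75 in WT_A12, and the highest of them reached 7.21 in KO_A12 and 7.14 in WT_A12. All 18 measured white adipocyte genes, such as Fabp4 and Plin1, had signals over 7 on both arrays, so the tissue carried the markers of its label. Genes of other organs were also found: 14 of 18 liver genes and 10 of 10 seminal vesicle genes were called higher in KO_A12, and 3 of 14 testis germ cell genes were called lower. Over all probe sets 0.567% were called higher and 0.757% lower. Calls follow the cutoffs of the study. "Higher" needs a log2 difference above 1 and a KO_A12 signal above 7, and "lower" needs a difference below -1 and a WT_A12 signal above 7.

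Metrnl was the adipokine gene with a called difference. It encodes a secreted protein made by adipocytes, by activated macrophages and in skin and mucosa, and in mice it has been tied to adipocyte differentiation and insulin sensitivity. Its log2 signal was 9.78 in KO_A12 and 10.97 in WT_A12. The difference of -1.20 corresponds to a KO_A12 signal 0.436 times that of WT_A12, and it was 3.90 times the robust SD of 0.31 at like signal in size. Of the 500 probe sets nearest in mean signal, 0.80% had a difference as low or lower. Among the 9 measured adipokine genes 0 were called higher and 1, Metrnl, was called lower, against 0.567% called higher and 0.757% called lower over all 22206 probe sets. Of the 10529 probe sets bright enough for a call, with 1 or both signals above 7, 1.6% were called lower and 1.2% higher. At a cutoff of 1.5-fold the adipokine genes gave the same counts, 1 lower and 0 higher, against 3.71% and 2.19% of all probe sets. Metrnl was already on the study's list of lower genes from these arrays, so the call is a description of them and no independent evidence. The paper also measured Metrnl by real-time qPCR and reports only a tendency to a slight decrease in KO_A12, in epididymal and in retroperitoneal fat. Of the other genes it picked from the arrays for qPCR, it reports a significant change in epididymal fat for Sfrp4 alone. In retroperitoneal fat it found none for Sfrp4. From these the paper concludes that Iah1 deficiency lowered both genes in visceral fat, which its abstract words as a possible decrease in epididymal fat.

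**Figure D1:**
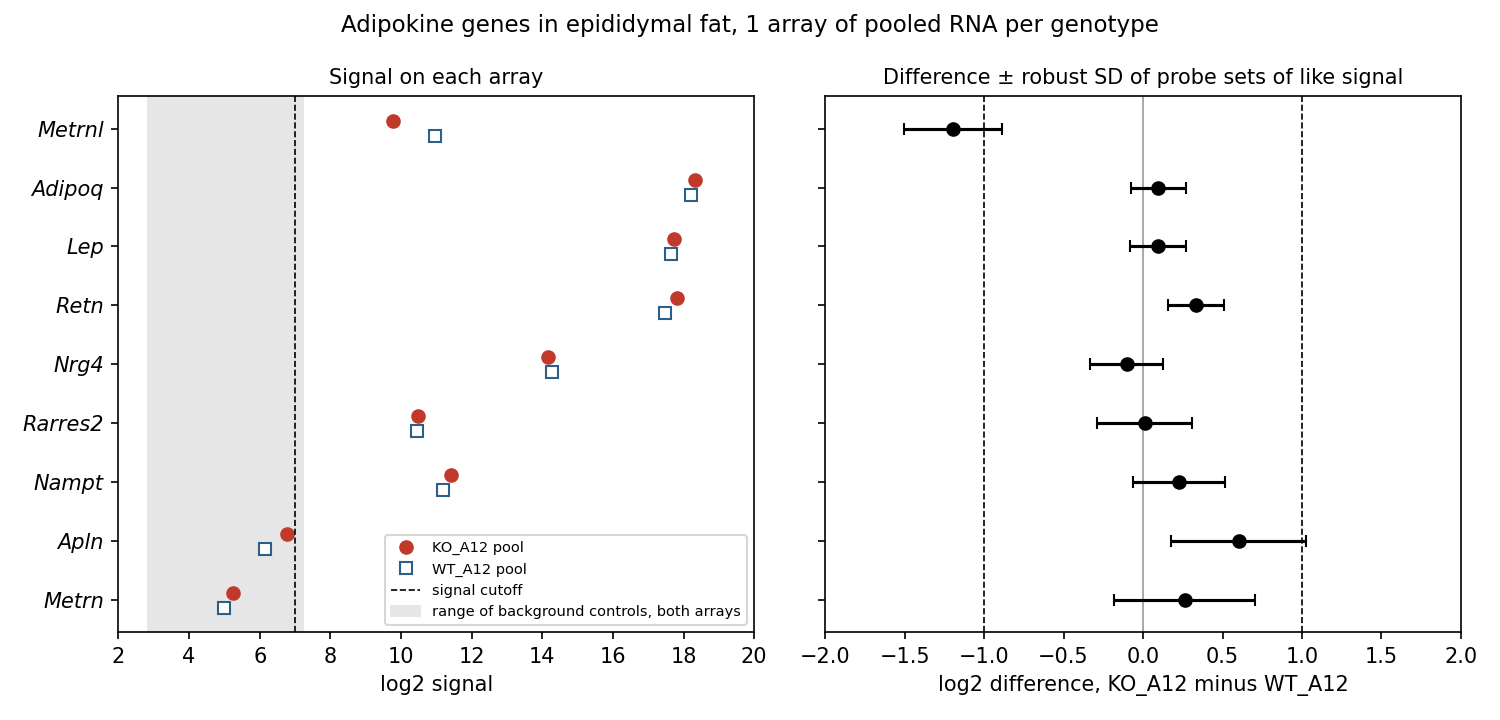
Left, log2 signal of each adipokine gene in the KO_A12 pool (filled circles) and the WT_A12 pool (open squares), with the range of the background controls in grey and the signal cutoff of 7 dashed; levels of different genes are not comparable. Right, the log2 difference, KO_A12 minus WT_A12, with bars of 1 robust SD of the 500 probe sets nearest in mean signal and the cutoffs of -1 and 1 dashed. Metrnl at -1.20 lies beyond a cutoff and the other 8 genes lie between -0.10 and 0.60.

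Markers of other cells of the tissue also differed. Of all probe sets 49.8% were lower and 0.757% were called lower. All 17 measured macrophage genes had a lower signal in KO_A12, with a median log2 difference of -0.72 and a mean log2 signal of 11.63 in KO_A12 and 12.39 in WT_A12. Of these, 4 were called lower: Trem2, a lipid-sensing receptor, at -1.27, its adaptor Tyrobp at -1.22, the lipopolysaccharide co-receptor Cd14 at -1.13 and Lgals3, galectin 3, at -1.12. The pan-macrophage markers Adgre1 and Csf1r had differences of -0.57 and -0.67 and were well above background, with KO_A12 signals of 11.28 and 13.82 against WT_A12 signals of 11.85 and 14.49. In the fibroblast and progenitor list 13 of 14 genes were lower, with a median of -0.56 and mean log2 signals of 11.82 in KO_A12 and 12.44 in WT_A12. The 4 called lower were the matrix genes Mfap5 at -1.51, Lum at -1.31 and Fn1 at -1.03 and, just past the cutoff and not after removal of a lowess trend, the progenitor marker Pi16. The Pi16 signals, 6.04 in KO_A12 and 7.05 in WT_A12, were below the highest background control of each array. The difference of Metrnl was lower than the median of either list but within the range of each. For the 18 white adipocyte genes the median was -0.05, with 7 higher, 11 lower and 0 called, but after quantile normalization 10 were higher and 8 lower and the median was 0.011. Of 12 mesothelium genes 10 were higher and 0 called, with a median of 0.52. In WT_A12 9 of these 12 were below the highest background control, so the size of their differences is uncertain. Over the 3 mesothelium genes with a signal over 7 on both arrays the median was 0.49. The part of these cell types in the Metrnl signal was not tested, and in pooled bulk RNA fewer cells of a type and less RNA per cell cannot be told apart.

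Metrn, the paralog best known as a neurotrophic factor of glia, was near background. It had a log2 signal of 5.25 in KO_A12 and 4.99 in WT_A12, both under the medians of the background controls. Its difference of 0.26 was smaller than the robust SD of 0.44 at like signal, and 32.2% of the nearest probe sets had a difference as high or higher. At this signal the array gave no usable level of Metrn in either pool. The 250 bases upstream of the start sites of both paralogs are printed, with those of Adipoq and Lep, to set the called gene beside a paralog near background and beside adipocyte genes with small differences. The sequences are those of RefSeq in GRCm38.p6, a C57BL/6J genome and not A/J-12SM, and run from 5′ to 3′ on the gene's strand. Capitals mark matches on either strand to the GC box, spelled GGGCGG, to the box named after its letters CCAAT, to the letters TATAA of the TATA box, or to the C/EBP palindrome TTGCGCAA.
Metrnl, chr11:121702177-121702426, plus strand: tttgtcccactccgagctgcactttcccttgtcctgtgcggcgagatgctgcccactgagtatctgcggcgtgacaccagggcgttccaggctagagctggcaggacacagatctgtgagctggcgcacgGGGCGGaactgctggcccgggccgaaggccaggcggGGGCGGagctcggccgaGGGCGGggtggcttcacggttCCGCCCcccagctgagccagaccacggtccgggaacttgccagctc
Metrn, chr17:25797046-25797295, minus strand: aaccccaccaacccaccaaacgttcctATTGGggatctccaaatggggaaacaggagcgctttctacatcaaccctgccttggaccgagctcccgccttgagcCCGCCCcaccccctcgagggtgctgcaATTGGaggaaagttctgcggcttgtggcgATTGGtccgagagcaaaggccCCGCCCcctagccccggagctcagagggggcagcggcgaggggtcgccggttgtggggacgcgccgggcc
Adipoq, chr16:23146286-23146535, plus strand: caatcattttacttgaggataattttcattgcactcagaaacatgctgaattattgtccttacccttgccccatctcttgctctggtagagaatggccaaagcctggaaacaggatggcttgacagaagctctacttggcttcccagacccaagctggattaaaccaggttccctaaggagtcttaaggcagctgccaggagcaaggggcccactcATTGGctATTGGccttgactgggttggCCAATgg
Lep, chr6:29059971-29060220, plus strand: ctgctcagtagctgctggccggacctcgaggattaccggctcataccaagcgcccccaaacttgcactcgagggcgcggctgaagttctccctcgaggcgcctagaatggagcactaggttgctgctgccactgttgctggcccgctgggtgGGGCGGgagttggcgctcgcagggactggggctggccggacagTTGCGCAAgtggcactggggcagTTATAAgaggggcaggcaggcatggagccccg

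The upstream window of Metrnl was GC-rich, with 68.4% G and C and 20 CpG dinucleotides, and held 4 GC boxes and no CCAAT box or TATAA. That of Metrn was alike in composition, with 65.6% G and C and 18 CpG, and held 2 GC boxes and 3 CCAAT boxes. The Adipoq window had 0 CpG and 48.8% G and C and held 3 CCAAT boxes, whereas the Lep window had 16 CpG, 1 GC box, the C/EBP palindrome and a TTATAA stretch that reads as TATAA on both strands, in 2 overlapping matches. Over 32817 RefSeq promoter windows of 250 bases, 32.7% held a GC box, 33.8% a CCAAT box, 22.8% a TATAA and 0.165% the C/EBP palindrome, and the median window had 52.4% G and C and 6 CpG. Of the 10 genes 9 had a window, which leaves Rarres2, and 0 of them held the E-box CACGTG or the AP-1 motif (TGA, any base, TCA), which 6.02% and 6.75% of all windows held. Of the genes not printed, Nampt had 5 GC boxes and 27 CpG, the most CpG of the 9, Apln 1 GC box, and Retn, Cfd and Nrg4 0 matches. A match describes the letters only.

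None of the classical hormones of the white adipocyte was called. Adipoq, the insulin-sensitizing adiponectin, had a log2 signal of 18.31 in KO_A12 and 18.22 in WT_A12. Lep, the satiety hormone leptin, had 17.74 in KO_A12 and 17.65 in WT_A12. Both differences were 0.10, within the robust SD of 0.18 at like signal, and 33.2% and 33.4% of the nearest probe sets had differences as high or higher than those of Adipoq and Lep. Quantile normalization turned them to -0.02 for Adipoq and -0.03 for Lep, so their direction depends on the scaling. Retn, which in mice is made by adipocytes and opposes insulin action, stood further out, with a log2 signal of 17.81 in KO_A12 and 17.47 in WT_A12. Its difference of 0.34 was 1.91 times the robust SD of 0.18, 3.40% of the nearest probe sets had a difference as high or higher, and it ranged from 0.26 to 0.34 over the scalings. These signals lie close to the highest on the arrays, 19.26 in KO_A12 and 19.23 in WT_A12, where differences were narrower than at low signal, and no source used here says whether spots were saturated.

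The other resistin-like genes were not called. Retnla, made by alternatively activated macrophages and in mouse white fat, had a log2 signal of 16.29 in KO_A12 and 16.37 in WT_A12. Retnlg, found in mouse bone marrow and neutrophils, had 6.48 in KO_A12 and 5.75 in WT_A12, below the highest background control on both arrays. Retnlb, a colon gene, had 3.78 in KO_A12 and 3.23 in WT_A12, below the background medians.

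Nrg4, an epidermal growth factor-like ligand that brown and white adipocytes secrete and that acts on hepatocytes, had a log2 signal of 14.16 in KO_A12 and 14.26 in WT_A12. Its difference of -0.10 was within the robust SD of 0.23. The other neuregulins were near background: Nrg1 had log2 signals of 5.11 in KO_A12 and 3.95 in WT_A12, Nrg2 of 4.99 in KO_A12 and 4.86 in WT_A12, and Nrg3 of 3.80 in KO_A12 and 3.31 in WT_A12. The difference of Nrg1, 1.16, passed the fold cutoff but not the signal cutoff, since it was under the background median on both arrays.

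Rarres2 and Nampt are adipokine genes that other cells express too. Rarres2 encodes prochemerin, a chemoattractant precursor made in white fat and strongly in liver. Its log2 signal was 10.47 in KO_A12 and 10.46 in WT_A12, a difference of 0.01 against a robust SD of 0.30. The 18 measured liver genes, by contrast, were all higher in KO_A12, with mean log2 signals of 8.44 in KO_A12 and 5.0 in WT_A12. In WT_A12 17 of them were below the highest background control, so the size of their differences was not measured. The part of liver RNA in the Rarres2 signal was not tested. Nampt, the rate-limiting enzyme of NAD salvage, which is also released from cells, had a log2 signal of 11.42 in KO_A12 and 11.19 in WT_A12. The difference of 0.22 was within the robust SD of 0.29, and 18.2% of the nearest probe sets had one as high or higher. Nampt lies on chromosome 12, which both genotypes carry from SM/J. Among 12 measured genes of NAD synthesis and use, 5 were higher and 7 lower, 0 were called and the median was -0.07. Over the 6 of them with a signal over 7 on both arrays the median was 0.08, of the opposite sign.

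Apln had the highest difference of the 9 genes and a weak signal. It encodes apelin, a peptide of adipocytes and endothelial cells that acts on vessels and the heart. Its log2 signal was 6.76 in KO_A12 and 6.16 in WT_A12, above the median but below the highest of the background controls on each array. The difference of 0.60 was 1.42 times the robust SD of 0.43, and 8.80% of the nearest probe sets had one as high or higher. Its receptor Aplnr, an endothelial G protein-coupled receptor, had a log2 signal of 9.90 in KO_A12 and 9.23 in WT_A12, a difference of 0.67 that 2.40% of its nearest probe sets reached. In the list of the apelin axis all 6 measured genes were higher, with a median of 0.58, and 1 was called. Of all probe sets 50% were higher and 0.567% were called higher. Vegfa, the endothelial growth factor, had a difference of 0.56, Hif1a, the hypoxia-inducible factor, of 0.23 and Pdk1, one of its targets, of 0.32. The called gene was Ccl8, a chemokine of macrophages that has no established place in apelin signalling, with 10.61 in KO_A12 and 9.48 in WT_A12. Beside these, 13 of 14 endothelium genes were higher, with a median of 0.37, 0 called and mean log2 signals of 11.70 in KO_A12 and 11.33 in WT_A12. The part of endothelial cells in the Apln and Aplnr signals was not tested.

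**Figure D2:**
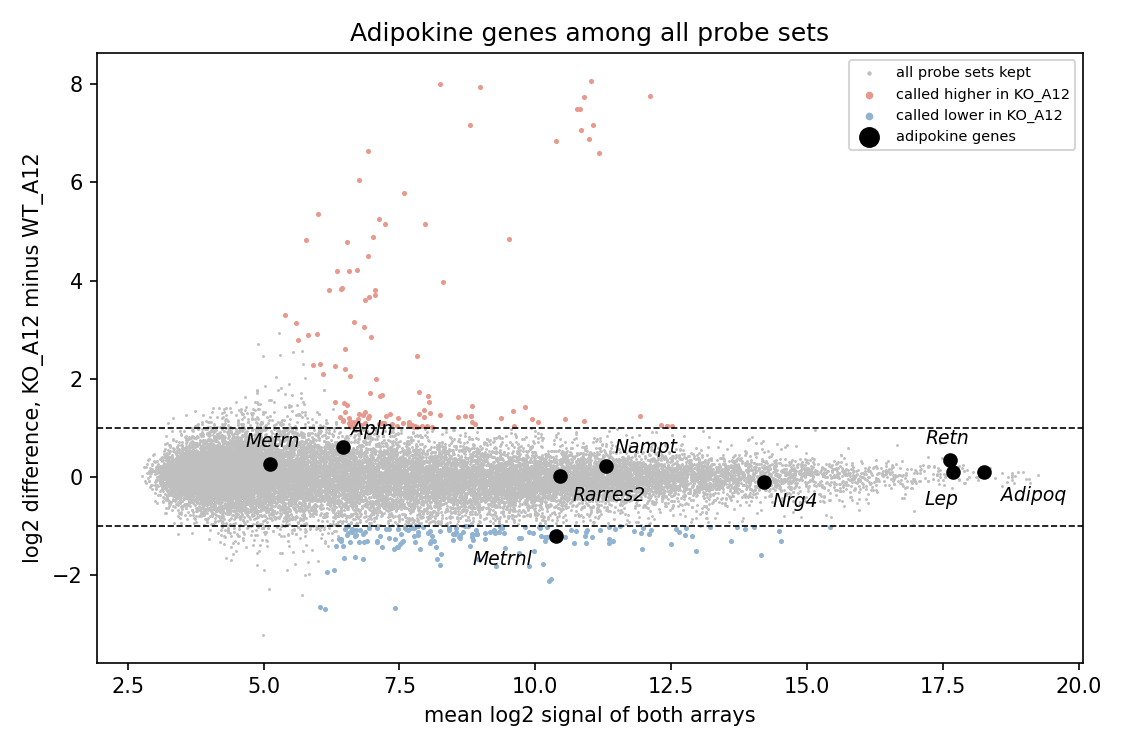
Log2 difference, KO_A12 minus WT_A12, against the mean log2 signal of both arrays for 22206 probe sets (grey), with those called higher in KO_A12 in red, those called lower in blue, the adipokine genes in black and the fold cutoffs of -1 and 1 dashed. Metrnl at -1.20 lies among the probe sets called lower, while Adipoq, Lep and Retn lie at the bright end with differences of 0.10, 0.10 and 0.34.

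None of the 14 measured receptors of these adipokines was called, 6 being higher and 8 lower in KO_A12 with a median of -0.14. Over the 9 receptors with a signal over 7 on both arrays the median was 0.03, so its sign depends on receptors with weak signals. The adiponectin receptors Adipor1 and Adipor2 had log2 signals of 13.51 and 15.57 in KO_A12, against 13.34 and 15.77 in WT_A12, and Cdh13, the T-cadherin that binds adiponectin on vessels and muscle, had 10.88 in KO_A12 and 10.46 in WT_A12. The leptin receptor Lepr was weak, with 6.39 in KO_A12 and 6.80 in WT_A12, below the highest background control on both arrays. For chemerin, the signalling receptor Cmklr1 had a difference of 0.03, the non-signalling binding protein Ccrl2 of -0.65 and Gpr1 of -0.88, the last with signals of 4.18 in KO_A12 and 5.06 in WT_A12 under the background medians. For resistin, Cap1 and Tlr4, which bind the human protein, had differences of -0.14 and -0.33. The neuregulin receptors Erbb3 and Erbb4 and their partner Erbb2 had differences of -0.14, -0.18 and 0.51, and each was below the highest background control on both arrays. Kit, a receptor tyrosine kinase described as a receptor of METRNL in the mouse heart, had a log2 signal of 9.48 in KO_A12 and 8.95 in WT_A12, a difference of 0.53 that 4.40% of the nearest probe sets reached.

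No assembly or signalling gene of adiponectin or leptin was called. Of 9 measured genes of adiponectin assembly and signalling 6 were higher and 3 lower, and the median was 0.06. Differences ran from -0.17 for Ero1a, an oxidase of the endoplasmic reticulum, to 0.75 for Ppara, the fatty acid sensor of oxidation genes. For Ppara the WT_A12 signal of 6.92 was below the highest background control, so the size of its difference is uncertain. Of 7 leptin signalling genes 6 were lower, with a median of -0.08. Each of these 6 differences was smaller in size than the robust SD at like signal. After quantile normalization 5 were lower and 2 higher. Socs3, the feedback inhibitor induced by leptin, had a log2 signal of 4.32 in KO_A12 and 4.40 in WT_A12, under the background medians, and Stat3, the transducer of leptin signals, had 11.46 in KO_A12 and 11.67 in WT_A12.

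Over the 9 measured adipokine genes the median log2 difference was 0.10, against 0.00029 over all probe sets, with 7 genes higher and 2 lower, where 50% of all probe sets were higher and 49.8% lower. After quantile normalization 5 were higher and 4 lower, since Adipoq and Lep changed sign. Without Metrnl the median was 0.16. Of the 9 genes 7 had a signal over 7 on both arrays, and these had the same median of 0.10. Among 25 other adipokine genes 13 were higher and 12 lower, with a median of 0.13, and 3 were called lower. Of all probe sets 0.757% were called lower, and of those bright enough for a call 1.6%. Over the 14 of the 25 with a signal over 7 on both arrays the median was 0.32. The 3 called lower were Sfrp4, a secreted inhibitor of Wnt ligands, with 9.19 in KO_A12 and 11.31 in WT_A12, Gpnmb, a glycoprotein of lipid-laden macrophages, with 13.35 in KO_A12 and 14.96 in WT_A12, and Fst, the activin antagonist follistatin, with 6.43 in KO_A12 and 7.74 in WT_A12. The difference of Metrnl was smaller in size than those of these 3 genes. For Fst the KO_A12 signal was below the highest background control, so the size of its difference is uncertain. In units of the robust SD at like signal, Metrnl at -3.90 stood further out than Fst at -3.27. Just short of a call in the other direction was Bmp4, a growth factor of adipocyte commitment, with 10.42 in KO_A12 and 9.43 in WT_A12. Its difference of 0.99 became 1.07 after quantile normalization and 1.06 after removal of a lowess trend, which called it higher. Hp, the hemoglobin-binding haptoglobin of liver and fat, had 17.79 in KO_A12 and 17.10 in WT_A12. Its difference of 0.69 was 3.92 times the robust SD at like signal, and 0.20% of the nearest probe sets reached it. The 18 measured liver genes were all higher in KO_A12, and the part of liver RNA in the Hp signal was not tested. The study had listed Sfrp4, Gpnmb and Fst as changed on the same arrays before the list was written, so their calls are no independent evidence.

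**Figure D3:**
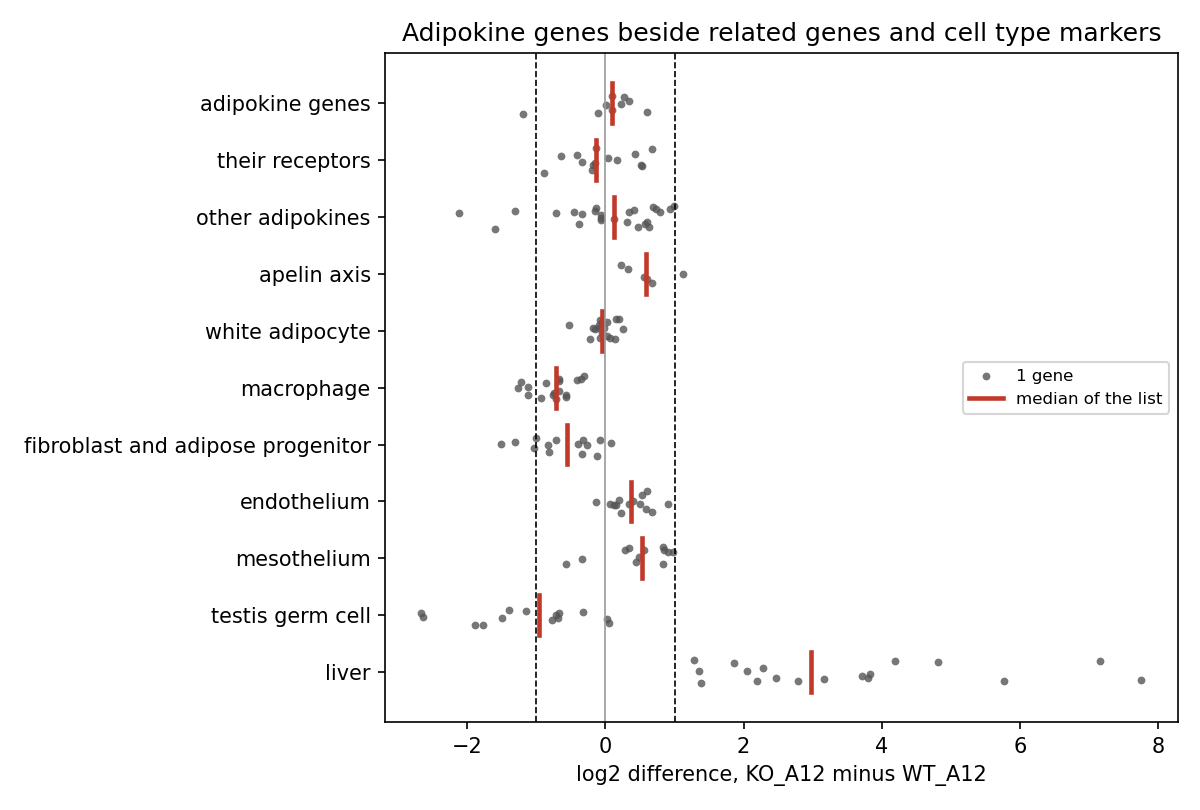
Log2 difference, KO_A12 minus WT_A12, of each measured gene (points) and the median (red bars) in the adipokine genes, their receptors and 9 related or cell type lists, with the fold cutoffs of -1 and 1 dashed; vertical scatter within a row has no meaning. Medians are 0.10 for the adipokine genes, -0.05 for the white adipocyte genes and -0.72 for the macrophage genes. In WT_A12 17 of the 18 liver genes were below the highest background control, so the sizes of the differences of these 17 were not measured.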

How the data were processed

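The data are 2 Clariom S Mouse Arrays, each for the epididymal fat of 3 males whose RNA was pooled, labelled from 100 ng. The authors obtained log2 signals by SST-RMA, spelled STT-RMA in their methods; the submitters' processing notes name RMA. The deposited log2 values were used as they stand. This normalization brings the arrays to a common scale, so that a shift of all genes cannot be seen. Their genome build was not given in the sources used here. Of 28846 rows, 6640 controls were left out. The platform annotation gives 1 symbol to 19572 of the 22206 probe sets, several to 0 and none to 2634, and the Entrez IDs of all 19572 matched RefSeq (GRCm38.p6).

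The number of arrays limits the precision, and with 1 per genotype no p-value is given. A gene of several probe sets was counted by the one of highest mean signal. The genes and lists were chosen with earlier results of these data known. Named are all 10 adipokine genes, all their measured receptors, the resistin-like and neuregulin genes, the called genes of the other lists (at most 4 of a cell type list) and Iah1. The rule also covered the called liver, seminal vesicle and testis genes, given here as counts only, and the 3 genes nearest to Metrnl in signal, left out because levels of different probe sets are not comparable. Adgre1, Csf1r, Bmp4, Hp and the other uncalled genes of lists were named after their values were seen. Alternatives were median centring, quantile normalization, a lowess trend (span 0.3), averaging probe sets, other cutoffs and 200 nearest probe sets. The computation was tested on simulated data. Python 3.11.15, numpy 2.4.6, pandas 2.3.3, statsmodels 0.14.6 and matplotlib 3.10.9 were used.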

Additional observations from a re-analysis of the deposited data

How the results depend on the processing

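No paired analysis was possible because only 1 array of each genotype exists here, which also means that none could be left out. The 36 values of the 9 adipokine genes under 4 alternatives (3 scalings and the mean of all probe sets) each moved by less than the robust SD at like signal. Averaging probe sets could not move any of them, since each gene had 1 probe set, and median centring shifts every gene by the same amount. The difference of Metrnl ran from -1.20 to -1.13, and 2 signs turned, both under quantile normalization, for Adipoq (-0.02) and Lep (-0.03). The count of adipokine genes called lower stayed at 1 and that called higher at 0 under these alternatives, without a signal cutoff, with a signal over 8, when both arrays had to exceed 7, and at 1.5-fold. At 3-fold the number called lower was 0, since the difference of Metrnl is smaller than that cutoff. The median over the adipokine genes ran from 0.07 to 0.16. With 200 in place of 500 nearest probe sets the robust SD for Metrnl stayed at 0.31. All scalings were applied on top of SST-RMA and do not show what it removed. Metrn and Apln were below the highest background control on both arrays, so their differences are uncertain in size.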

Other observations

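Genes of the complement system, which adipsin feeds into, were examined although Cfd itself was not analysed here. Of 7 measured genes of the alternative pathway and its receptors 0 were called, with 2 higher and 5 lower in KO_A12. Cfb, the substrate that adipsin cleaves, had a log2 signal of 11.59 in KO_A12 and 10.80 in WT_A12, a difference of 0.79 that 1.20% of the nearest probe sets reached. The 18 measured liver genes were all higher in KO_A12, and the part of liver RNA in the Cfb signal was not tested. C3ar1, the receptor of the anaphylatoxin that this pathway releases, had 12.52 in KO_A12 and 13.52 in WT_A12, just short of the cutoff, and was called lower after median centring. Cd55, which breaks down the convertases, had a difference of -0.81 and Cfp, properdin, of -0.26.

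The C1q and C1q/TNF-related genes share the globular domain of adiponectin. Of 13 measured 0 were called, with 6 higher and 7 lower and a median of -0.05. After quantile normalization 7 were higher and 6 lower, and the median was 0.016. Over the 7 genes with a signal over 7 on both arrays the median of the deposited signals was -0.27. The 3 subunits of complement C1q, which macrophages make, had differences of -0.68 for C1qa, -0.67 for C1qb and -0.90 for C1qc. The secreted C1qtnf6 and C1qtnf7 had 0.25 and -0.27.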
